A study of Homo sapiens with 12 samples.

Results

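The RUNX factors and the ETO family corepressors were examined as 1 set of 7 genes of the 52889 gene entries in the count table. The set was chosen by gene symbol: the 3 RUNX transcription factors RUNX1, RUNX2 and RUNX3, their shared partner CBFB, and the 3 ETO family genes RUNX1T1 (ETO), CBFA2T2 (MTGR1) and CBFA2T3 (ETO2, also MTG16). It was proposed with the lower RUNX1T1 signal at day 3 against day 0 already known. For RUNX1T1 that contrast is therefore given as a description without a test. Genes of the other lists are given with their test in that contrast. All 7 genes passed the filter on low counts and were tested among 27579 entries.

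ATAC-Seq, which marks open chromatin by inserting sequencing adapters into accessible DNA, was performed in HEK293T cells, a human embryonic kidney line. Mock cells (n = 3) carried the empty vector pSBTet-GP, and d0 cells (n = 3) carried constitutive MLL-AF4, the direct fusion protein of the t(4;11) translocation. The d3 cells (n = 3) carried constitutive MLL-AF4 plus the reciprocal fusion AF4-MLL, switched on by 1 µg/ml doxycycline during the preceding 48 h. The d28 cells (n = 3) are given the same genotype as d0 in the labels and were harvested 25 days after d3, after doxycycline had been withdrawn and AF4-MLL shut down. MLL-AF4 was stably transfected and AF4-MLL was introduced on a transiently transfected plasmid. Per the paper, blasticidin was given along with doxycycline for 48 h. No group is known to have had the second transfection, doxycycline and blasticidin without AF4-MLL. Effects of these treatments and of AF4-MLL cannot be told apart. The cells were a transfected population of a kidney line and not blood cells, and the harvest day of the Mock cells and whether they received doxycycline are not given in the sources used here. The labels do not say whether replicates came from separate cultures, so the p-values measure only the spread between these samples.

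RUNX proteins bind DNA through their Runt domain, and CBFB, which does not itself contact DNA, makes that binding stronger. RUNX1 is required for the first blood stem cells, RUNX2 for bone formation, and RUNX3 in T cells and sensory neurons. The ETO family proteins do not bind DNA by themselves, and they bring the NCOR and SIN3A complexes and histone deacetylases to transcription factors. RUNX1 and RUNX1T1 are joined by the t(8;21) translocation of acute myeloid leukaemia, CBFB is joined to MYH11 by inversion of chromosome 16, and CBFA2T3 is joined to GLIS2 in childhood megakaryoblastic leukaemia.

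Summed counts ranged from 353430 to 501324 per Mock sample, from 648466 to 715327 at d0, from 930067 to 1186209 at d3 and from 1058754 to 3539937 at d28. The share of counts from mitochondrially encoded genes moved with the groups, from 26.4 to 27.0% in Mock to between 63.6 and 68.5% at d28, which left 257857 to 1116385 other counts per sample. The 7 genes together held 81 to 224 counts per sample, so that each value below rests on few reads. Genes usually open in HEK293 cells, a list of 11 kidney and neural genes, had a median density at percentile 91.8 of protein-coding genes. It was 39.9 for 12 blood cell markers and 34.9 for 8 fibroblast and endothelial markers. The 11 genes ran from EYA1 (0.0698 normalized counts per kb, percentile 10.7) to SOX2 (9.39, percentile 97.3). Mean normalized counts of these 2 genes were 24.5 and 23.6, so the densities differ through the gene span, and the lists were not compared at equal span. The summed normalized counts of the blood markers were 88.6 to 108 in Mock, 105 to 116 at d0, 102 to 115 at d3 and 96.0 to 100 at d28. Among the defining blood genes, mean normalized counts were 11.9 for PTPRC, 2.08 for CD3E and 1.07 for HBB. Against Mock 0 of 11 tested blood markers passed edgeR's test on any day (1, 0 and 0 at an unadjusted p below 0.05 at d0, d3 and d28) and 0 of 8 fibroblast and endothelial markers did (0, 0 and 1), and DESeq2 called 0 of either. Of all entries 0.609% (d0), 1.27% (d3) and 1.45% (d28) passed edgeR's test against Mock. Of the kidney and neural genes, ZIC2 was higher at d0 against Mock (1.12 ± 0.29, edgeR adjusted p = 0.0182), a call lost with DESeq2 and without Mock replicate 1 or 2 or d0 replicate 2.

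RUNX1T1 had less signal at d3 than in Mock and at d0, and was still low at d28, 25 days later. The gene lies on chromosome 8 (RefSeq, GRCh38.p14, bases 91954967 to 92103385, identifier ENSG00000079102), and its protein is the corepressor that the t(8;21) translocation fuses to RUNX1. Its normalized counts, scaled to the mean effective library size, were 26.9, 32.2 and 29.5 in the Mock samples (raw counts 18, 25 and 16). They were 47.3, 31.2 and 24.6 at d0 (raw counts 38, 22 and 19). They were 16.2, 6.85 and 11.1 at d3 (raw counts 21, 8 and 14) and 12.1, 8.44 and 17.5 at d28 (raw counts 23, 12 and 12). Every d3 and d28 sample thus lay below every Mock and d0 sample. The mean was 29.6 ± 2.64 in Mock and 34.4 ± 11.7 at d0, against 11.4 ± 4.67 at d3 and 12.7 ± 4.54 at d28 (SD, n = 3 each), and replicate 1 was the highest at d0. In a cell population, fewer cells with open chromatin at a gene and less open chromatin per cell cannot be told apart.

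**Figure D1:**
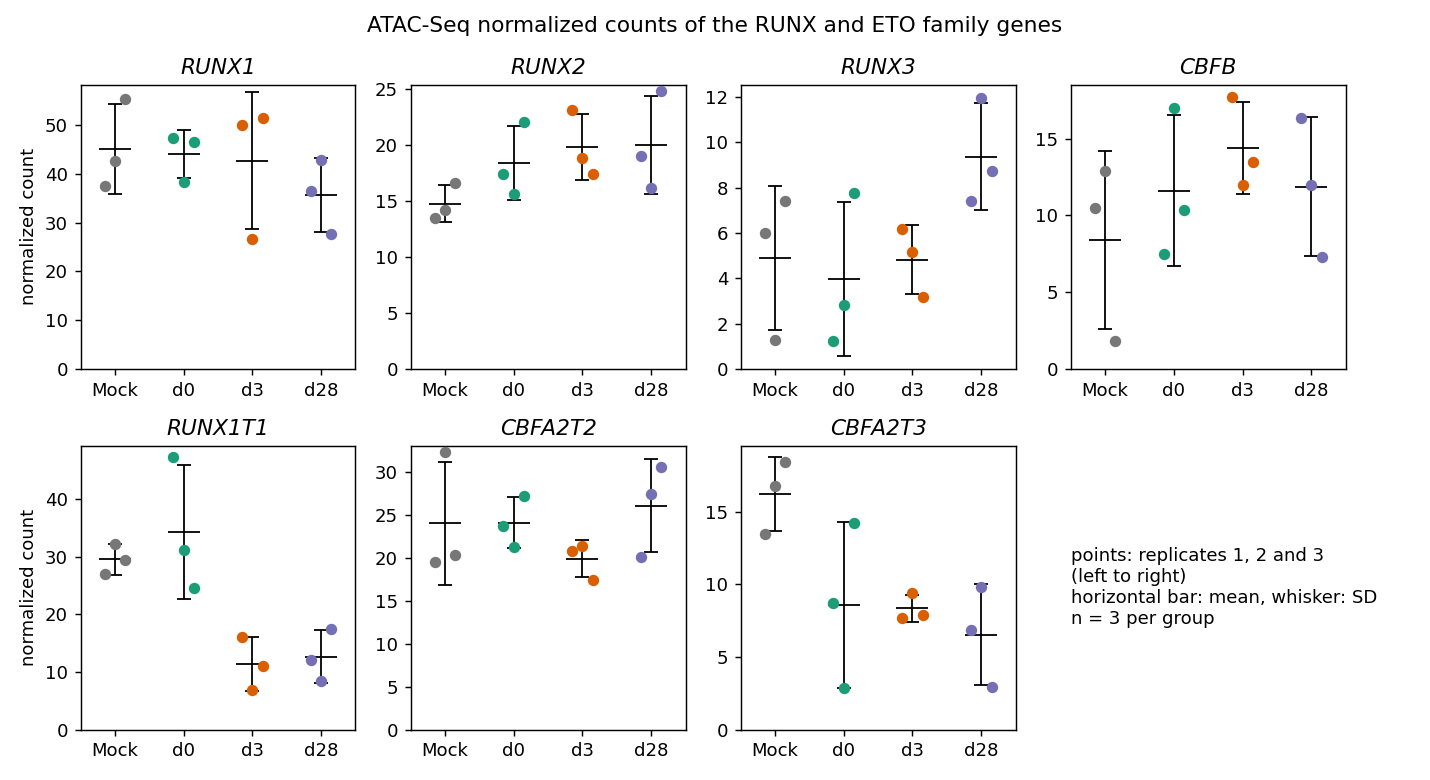
Normalized counts of the 7 genes (y axes, each from 0) in the 12 samples, by group. Points are the replicates, horizontal bars the means and whiskers the SD (n = 3 per group). RUNX1T1 is 6.85 to 17.5 in the d3 and d28 samples and at least 24.6 in the Mock and d0 samples.

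Against Mock, RUNX1T1 fell 2.56-fold at d3 (log2 fold change -1.36 ± 0.30 SE, 95% interval -1.95 to -0.77, adjusted p = 0.00166, edgeR's quasi-likelihood test with Benjamini-Hochberg adjustment). At d28 it fell 2.50-fold against Mock (-1.32 ± 0.30, interval -1.90 to -0.74, edgeR adjusted p = 0.00153). The d28 and Mock samples are the only pair of groups that holds neither the d3 nor the d0 samples in which the gene was noticed. The members were chosen with earlier results of these data known, so the adjusted p at d28 may also depend on that choice. Both contrasts use the same Mock samples and are not independent. That of d3 shares the d3 samples with the contrast used for the choice, so its adjusted p is not free of that choice. No difference between d0 and Mock was detected, where the log2 fold change was 0.22 ± 0.26 (interval -0.30 to 0.74, edgeR adjusted p = 0.843).

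No difference of RUNX1T1 between d3 and d28 was detected, and the log2 fold change between them was 0.03 ± 0.32, with an interval of -0.59 to 0.65 (edgeR adjusted p = 0.987). From d0 to d3 the log2 fold change was -1.58, given without a test because this difference led to the choice of the genes. From d0 to d28 RUNX1T1 fell by 1.54 on the log2 scale (± 0.28 SE, edgeR adjusted p = 9.99e-06), a contrast that shares the d0 samples with the one used for the choice. Without d0 replicate 1, the highest d0 sample, the fall from d0 to d28 was 1.21 on the log2 scale and still passed (edgeR adjusted p = 0.0442). That of d3 against d0 became -1.25.

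The calls against Mock rest on few samples. Leaving out Mock replicate 2 gave log2 fold changes of -1.25 at d3 (edgeR adjusted p = 0.0609) and -1.21 at d28 (edgeR adjusted p = 0.0644), and leaving out d28 replicate 2 gave -1.10 at d28 (edgeR adjusted p = 0.0586). The share of mitochondrial counts and the depth moved with the groups. With the mitochondrially encoded genes removed, the log2 fold changes were -1.34 at d3 and -1.30 at d28.

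RUNX1T1 was the only one of the 7 genes past an adjusted p of 0.05 in any comparison. At d3 against Mock 1 of 7 passed, where 1.27% of all tested entries did. That contrast holds the d3 samples used for the choice. At d28 against Mock 1 of 7 passed, where 1.45% did. Between d28 and d0 1 of 7 passed, against 1.35% of all entries, and between d3 and d0 the count was 1 of 7 beside 0.91% of all entries, a count from which nothing is read because that contrast entered the choice. At d0 against Mock 0 of 7 passed, against 0.609% of all entries by edgeR's test (1 of 7 at an unadjusted p below 0.05, as were 9.65% of all entries, and 0 by DESeq2). Between d28 and d3 0 of 7 passed, against 0.37% (1 of 7 at an unadjusted p below 0.05, as were 8.83% of all entries, and 0 by DESeq2).

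Against Mock the median log2 fold change of the 7 genes was -0.0044 (d0), -0.042 (d3) and 0.0037 (d28), beside -0.0017, 0.028 and 0.032 over all tested entries. The median of the set was thus close to that of all entries, with RUNX1T1 far below it. The absolute log2 fold change of RUNX1T1 was at percentile 92.2 of all entries at d3 and 91.7 at d28. With library sizes alone in place of TMM factors, the median over all entries moved to -0.48 (d0), -0.37 (d3) and -1.34 (d28), and values against Mock turned negative for RUNX2 and CBFB at d0 and d28 and for RUNX3 at d3 and d28, while RUNX1T1 stayed lower at d3 (-1.73) and d28 (-2.68).

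**Figure D2:**
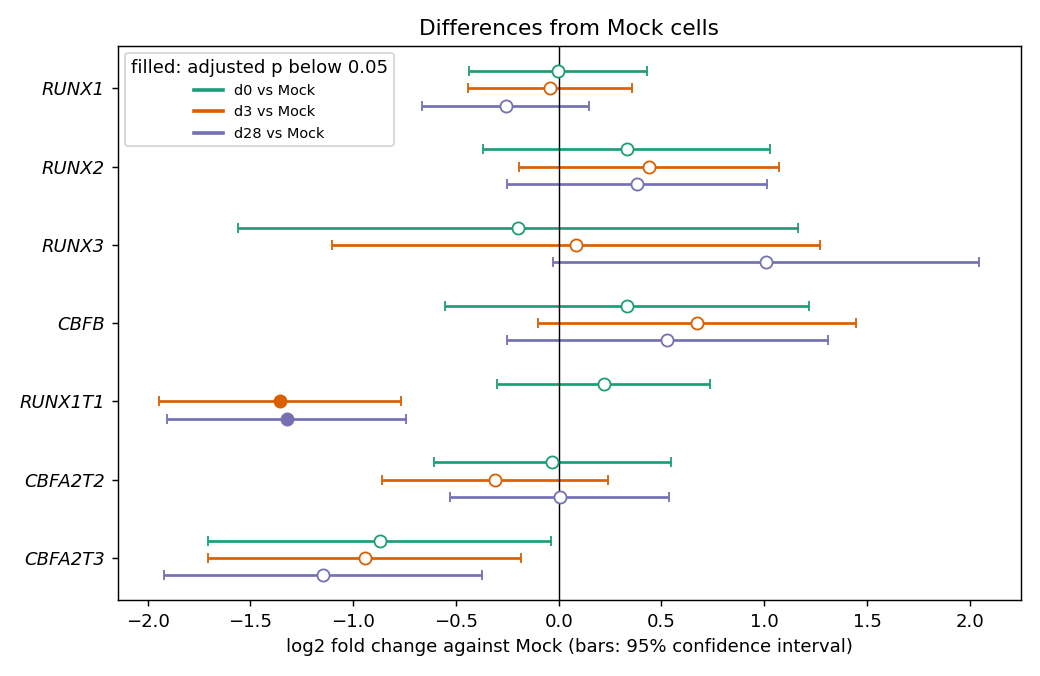
Log2 fold change against Mock (x axis) of the 7 genes (y axis) at d0, d3 and d28, with 95% confidence intervals from edgeR. Filled points passed an adjusted p of 0.05, which only RUNX1T1 did, at d3 (-1.36) and d28 (-1.32). The d3 samples also entered the choice of the genes.

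CBFA2T3 was lower than Mock in the means of all 3 fusion groups, but none of these differences passed the test. The gene lies on chromosome 16 (bases 88874858 to 88977207, ENSG00000129993), and its protein is a corepressor that works with TAL1, GATA1 and LDB1 in red cell and stem cell precursors. Its normalized counts were 13.5, 16.8 and 18.5 in Mock (raw counts 9, 13 and 10) and 8.71, 2.84 and 14.2 at d0 (7, 2 and 11). They were 7.70, 9.41 and 7.92 at d3 (10, 11 and 10) and 6.86, 9.84 and 2.91 at d28 (13, 14 and 2). All d3 and d28 samples lay below all Mock samples, while d0 replicate 3 lay within the Mock range. Against Mock its log2 fold changes were -0.87 ± 0.43 at d0 (edgeR adjusted p = 0.484), -0.95 ± 0.39 at d3 (edgeR adjusted p = 0.280) and -1.15 ± 0.39 at d28 (edgeR adjusted p = 0.123). Unlike that of RUNX1T1, the mean of CBFA2T3 was already lower at d0 (8.60 ± 5.71) than in Mock (16.2 ± 2.54, SD, n = 3 each), with ranges that overlapped. Under a rule of unadjusted p below 0.05 and a log2 fold change beyond 1, which 4.8% of all entries met at d28 against Mock, CBFA2T3 was counted along with RUNX1T1.

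CBFA2T2, the remaining ETO family gene, showed no detectable change in any comparison. It lies on chromosome 20 (bases 33490096 to 33650030, ENSG00000078699) and encodes a corepressor with roles in germ cells and the gut. Its mean normalized counts were 24.0 ± 7.14 in Mock, 24.0 ± 2.98 at d0, 19.9 ± 2.13 at d3 and 26.0 ± 5.40 at d28 (SD, n = 3 each), with overlapping samples in all groups. The intervals of its log2 fold change against Mock ran from -0.61 to 0.55 at d0, from -0.86 to 0.24 at d3 and from -0.53 to 0.54 at d28.

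RUNX1 held the most reads of the 7 genes, 499 over the 12 samples, and did not change detectably. It lies on chromosome 21 (bases 34787801 to 35049302, ENSG00000159216). Its mean normalized counts were 45.1 ± 9.25 in Mock, 44.1 ± 5.01 at d0, 42.7 ± 14.02 at d3 and 35.7 ± 7.64 at d28 (SD, n = 3 each). The d3 samples were the most spread, with 50.05, 26.5 and 51.5 normalized counts, and each group overlapped the next in order. The intervals of its log2 fold change against Mock ran from -0.44 to 0.43 at d0, from -0.44 to 0.36 at d3 and from -0.67 to 0.15 at d28. These are the narrowest intervals of the 7 genes. RUNX1-AS1 overlaps 18.6% of the span of RUNX1, and ATAC-Seq reads carry no strand of transcription, so the reads of the overlapping part cannot be told apart.

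The partner subunit CBFB had its lowest mean in Mock and its highest at d3. It lies on chromosome 16 (bases 67029149 to 67101058, ENSG00000067955), the chromosome that also holds CBFA2T3. Its normalized counts were 10.5, 12.9 and 1.85 in Mock, where replicate 3 held a single read, and 17.7, 11.98 and 13.5 at d3. The means were 8.41 ± 5.81 in Mock, 11.6 ± 4.90 at d0, 14.4 ± 2.97 at d3 and 11.9 ± 4.54 at d28 (SD, n = 3 each), and the ranges overlapped at each step. The log2 fold change at d3 against Mock was 0.67 ± 0.39 and did not pass (edgeR adjusted p = 0.544).

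RUNX2 and RUNX3 had their highest means at d28 without passing the test. RUNX2 lies on chromosome 6 (bases 45328330 to 45551082, ENSG00000124813) and RUNX3 on chromosome 1 (bases 24899511 to 24965138, ENSG00000020633). RUNX2 had means of 14.8 ± 1.65 in Mock, 18.3 ± 3.31 at d0, 19.8 ± 2.95 at d3 and 19.97 ± 4.37 at d28 (SD, n = 3 each). Its d3 samples (23.1, 18.8 and 17.4) all lay above its Mock samples (13.5, 14.2 and 16.6), with a log2 fold change of 0.44 ± 0.32 (edgeR adjusted p = 0.651). SUPT3H, a neighbouring protein-coding gene with its own entry in the table, overlaps 22.3% of the span of RUNX2.

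RUNX3 was the most thinly covered gene, with 73 reads over the 12 samples. Its normalized counts were 5.99, 1.29 and 7.38 in Mock (raw counts 4, 1 and 4), 1.24, 2.84 and 7.77 at d0 (1, 2 and 6) and 6.16, 5.14 and 3.17 at d3 (8, 6 and 4). At d28 they were 7.39, 11.95 and 8.74 (14, 17 and 6). The d28 samples lay above all d3 samples and only just above the highest Mock sample. The log2 fold change at d28 was 1.01 ± 0.53 against Mock (edgeR adjusted p = 0.419), 1.21 ± 0.52 against d0 (edgeR adjusted p = 0.277) and 0.93 ± 0.43 against d3 (edgeR adjusted p = 0.511). Under the rule of unadjusted p below 0.05 and a log2 fold change beyond 1, RUNX3 was counted with RUNX1T1 at d28 against d0, as were 4.53% of all entries. RUNX3-AS1 overlaps 52.2% of the span of RUNX3.

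Groups that do not overlap were common among all entries. At d3 against Mock 3 of the 7 genes did not overlap (RUNX2 higher, RUNX1T1 and CBFA2T3 lower), beside 16.5% of all entries. At d28 against Mock 3 of 7 did not overlap (RUNX3 higher, RUNX1T1 and CBFA2T3 lower), beside 17.7%. No gene of the set was free of overlap at d0 against Mock, where 14.4% of all entries were. Between d28 and d0 RUNX1T1 alone of the 7 did not overlap (18.2% of all entries), which also held between d3 and d0 (17.1%), the contrast used for the choice, and between d28 and d3 RUNX3 alone (14.3%).

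The spread within groups was compared with counting noise as a chi-square per degree of freedom, for which counting noise alone gives a value near 1. RUNX1 had 2.12, RUNX1T1 1.81, CBFB 1.57, RUNX3 1.34, CBFA2T3 1.17, CBFA2T2 0.892 and RUNX2 0.504, each over 8 degrees of freedom. The sample that contributed most was d3 replicate 2 for RUNX1 and d0 replicate 1 for RUNX1T1.

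Between genes, levels were compared as normalized counts per kb of the RefSeq gene span, since the interval counted per gene is not given in the sources used here. All 7 genes had a density below the median of protein-coding genes. Their spans ran from 65.6 kb (RUNX3) to 262 kb (RUNX1), and dividing by a long span lowers the density. Over the 12 samples their density was 0.160 for RUNX1, 0.0818 for RUNX2, 0.0877 for RUNX3, 0.161 for CBFB, 0.148 for RUNX1T1, 0.147 for CBFA2T2 and 0.0970 normalized counts per kb for CBFA2T3. The median of 16891 protein-coding genes was 0.468, and the 7 genes lay between percentiles 12.7 (RUNX2) and 24.1 (CBFB). RUNX1T1 had the highest density of the set in Mock and d0, at 0.199 and 0.232 per kb (percentiles 29.7 and 33.1), and fell to 0.0766 at d3 and 0.0854 at d28 (percentiles 13.4 and 13.0), among the lower densities of the set. Across genes the Spearman correlation of count and span was 0.157, so the density depends on the span as well as on the reads.

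**Figure D3:**
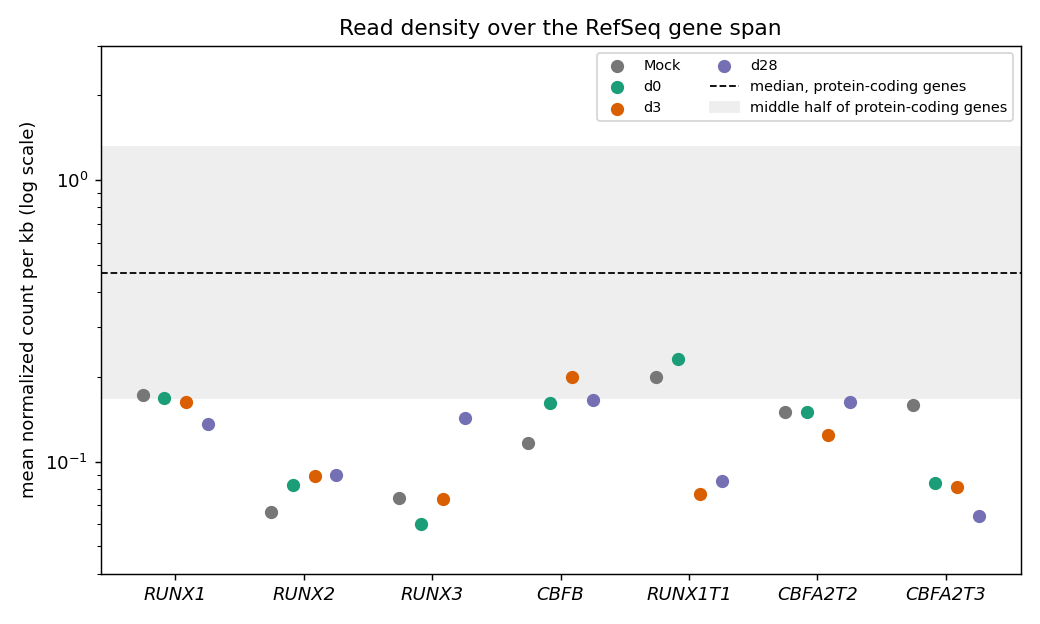
Mean normalized counts per kb of RefSeq gene span (y axis, log scale) of the 7 genes by group. The dashed line is the median of 16891 protein-coding genes (0.468 per kb) and the grey band their middle 50 percent, and RUNX1T1 falls from 0.199 in Mock to 0.0766 at d3.

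None of the genes around RUNX1T1 passed the test together with it. Of the 5 tested genes on each side, 0 of 10 passed edgeR's test in any of the 6 comparisons, and DESeq2 also called 0. Between 0.37% and 1.45% of all entries passed edgeR's test in these comparisons, so 0 of 10 is near that share. At an unadjusted p below 0.05 there were 0 at d3 and 0 at d28 against Mock, and 1 at d0. Their log2 fold changes ranged from -0.43 to 0.94 at d3 and from -0.36 to 0.52 at d28, with medians of 0.12 and 0.20. In a window of 5 Mb on each side, 0 of 41 genes passed edgeR's test at d3 and d28 against Mock (3 and 2 at an unadjusted p below 0.05, and 0 by DESeq2). This is also near the share of all entries, 1.27% at d3 and 1.45% at d28. The median was 0.11 at d3 and 0.19 at d28 in the window, and -0.05 on both days over the 698 tested genes of chromosome 8.

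**Figure D4:**
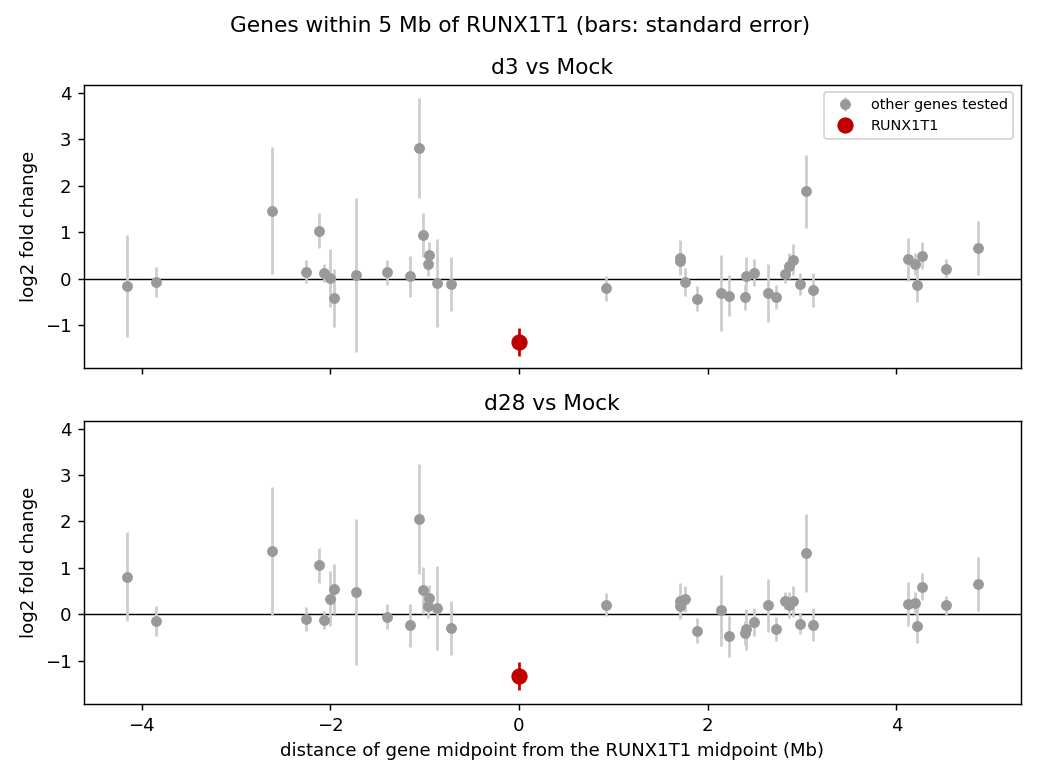
Log2 fold change against Mock (y axis) of the tested genes within 5 Mb of RUNX1T1, by distance of the gene midpoints in Mb (x axis), at d3 (top) and d28 (bottom). Bars are standard errors. RUNX1T1 lies at -1.36 and -1.32, and the medians of the 41 other genes are 0.11 and 0.19.

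At d3 and d28 against Mock, CBFA2T3 and the median of its 10 neighbours had opposite signs, a contrast that was not tested. At d0 the neighbour median was -0.19, the same sign as CBFA2T3. In the window of 5 Mb on each side, the medians of 95 genes were -0.19 (d0), -0.04 (d3) and -0.07 (d28). These have the sign of CBFA2T3 on each day. Its 10 neighbours had median log2 fold changes of 0.18 at d3 and 0.20 at d28 against Mock, and 0 of 10 passed edgeR's test (1 on each day at an unadjusted p below 0.05, and 0 by DESeq2). Of all entries 1.27% (d3) and 1.45% (d28) passed, so 0 of 10 is near that share. Around the other 5 genes 1 neighbour passed in 1 comparison: CDC5L, a splicing factor gene near RUNX2, was higher at d28 against Mock (0.77 ± 0.21, edgeR adjusted p = 0.0273), with an adjusted p of up to 0.208 when 1 sample was left out (Mock replicate 2 or 3, or d28 replicate 1 or 2, each ended the call) and no call by DESeq2.

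The promoters of RUNX2 and RUNX3 carry the letters their own family binds. RUNX proteins recognise TGTGGT or TGCGGT on either strand, and 19.6% of 35116 RefSeq promoters of 300 bases hold at least 1 match. The distal RUNX2 promoter (chr6:45328080-45328379) held 5 matches and the distal RUNX3 promoter (chr1:24964961-24965260) held 2. Of the 35116 promoters 2.32% held 2 or more matches. The second promoter in the table for each of these genes held 0, as did the single promoter in the table for each of RUNX1 (chr21:34888650-34888949, inside the gene), CBFA2T2 and CBFA2T3. The distal RUNX1 promoter and the promoters of RUNX1T1 and CBFB were not searched. A run of 18 bases was shared by the distal promoters of RUNX2 and RUNX3 and was found in 2 of the 35116 promoters, those of these genes. It holds 2 of the matches, as ACCACA, and is shown in capitals within 30 bases of each promoter (RefSeq, GRCh38.p14, 5′ to 3′ on the strand of the gene).
RUNX3: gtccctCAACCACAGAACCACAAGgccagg
RUNX2: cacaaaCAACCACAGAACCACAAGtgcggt
The RUNX3 stretch is chr1:24965120-24965149 on the minus strand, with the run starting at position -133 from the start set for that promoter. This stretch holds base 24965138, the 5′ end of the RefSeq span of RUNX3. The RUNX2 stretch is chr6:45328338-45328367 on the plus strand, with the run starting 14 bases after the start set for its promoter. A match is a description of the letters, and the counts per gene do not show whether this stretch was open.

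The cofactors of RUNX and CBFB were examined as a list of 20 genes. At d0 against Mock 1 of 20 passed, beside 0.609% of all entries: TLE4, a Groucho family corepressor that RUNX proteins recruit, rose by 0.56 ± 0.13 on the log2 scale (edgeR adjusted p = 0.00478), from a mean of 194 to 290 normalized counts. The call was lost without Mock replicate 3 or d0 replicate 1 (adjusted p up to 0.236). The other gene that passed was KMT2A (MLL), a histone methyltransferase that binds RUNX1, with log2 fold changes against Mock of 1.06 at d3 (edgeR adjusted p = 2.12e-04) and 1.40 at d28 (edgeR adjusted p = 9.63e-10). KMT2A was thus 1 of 20 on each of these days, beside 1.27% (d3) and 1.45% (d28) of all entries. The transfected vectors carry KMT2A sequence, and reads from the vectors and from the gene cannot be told apart. Over the 20 genes, median log2 fold changes against Mock of 0.13 (d0), 0.08 (d3) and 0.24 (d28) were measured.

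Of 25 partners of the ETO family, NCOR1 alone passed against Mock, at d3, where 1.27% of all entries did. NCOR1, the nuclear receptor corepressor that ETO proteins bind, fell by 0.63 on the log2 scale (± 0.18 SE, edgeR adjusted p = 0.0415), from a mean of 70.2 to 45.3 normalized counts. DESeq2 did not call it, and the call was also lost with the 6 samples of the comparison alone, without Mock replicate 1 or 3 or without d3 replicate 1 or 2 (adjusted p up to 0.545). At d0 and at d28 against Mock 0 of 25 passed edgeR's test (6 at an unadjusted p below 0.05 on each day, and 0 by DESeq2). Of all entries 0.609% (d0) and 1.45% (d28) passed, and 9.65% were at an unadjusted p below 0.05 at d0. SIN3A, the scaffold of a deacetylase complex, was higher at d3 than at d0 by 0.62 ± 0.17 on the log2 scale (edgeR adjusted p = 0.0443), a call lost in each of the 6 fits that left out 1 sample and with DESeq2.

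Target genes of RUNX factors were examined as lists for blood and for bone and cartilage. Of 20 tested blood targets of 22 listed, 1 passed against Mock, at d28, where 1.45% of all entries did: ITGAE, the integrin of tissue-resident T cells, was lower at d28 (-0.89 ± 0.24, edgeR adjusted p = 0.0252), with DESeq2 and 3 of the 6 fits that left out 1 sample (Mock replicate 2 or 3, or d28 replicate 1) ending the call. At d0 and at d3 0 of 20 passed edgeR's test (4 and 0 at an unadjusted p below 0.05, and 0 by DESeq2). Of all entries 0.609% (d0) and 1.27% (d3) passed, and 9.65% were at an unadjusted p below 0.05 at d0. Of 14 skeletal targets 0 passed against Mock (3, 1 and 1 at an unadjusted p below 0.05 at d0, d3 and d28, and 0 by DESeq2). FGF18, a growth factor of cartilage, was lower at d3 than at d0 (-1.27 ± 0.35, edgeR adjusted p = 0.0378). That call was lost in 5 of the 6 fits that left out 1 sample, all but the one without d3 replicate 1. Among 14 genes that occur in fusions with these factors, RUNX1T1 itself was the only one past an adjusted p of 0.05. The list holds the members RUNX1, CBFB, RUNX1T1, CBFA2T2 and CBFA2T3. This count therefore repeats the calls of RUNX1T1 above, and nothing further is read from it.

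The genes whose pattern was most like that of RUNX1T1 over the 12 samples were AHR, the dioxin receptor, with a Pearson correlation of 0.928, ABCB10, a mitochondrial transporter, with 0.912, and EDEM3, an enzyme of glycoprotein quality control, with 0.904. The correlations used log2 normalized counts of 8294 genes with a mean of at least 20, the samples share their group structure, and the values are descriptive. Of the 10 genes most like RUNX1T1, 5 lie on chromosome 1, which holds 11.0% of the eligible genes with a RefSeq position, and for the other members the commonest chromosome held 2 or 3 of 10, a count made after the values were seen and not tested. The log2 fold changes of AHR against Mock were -0.64 at d3 and -0.53 at d28. For the other members the most similar genes were GHITM for RUNX1 (0.935), URB1 for RUNX2 (0.892), KIAA0895L for RUNX3 (0.877), MKI67 for CBFB (0.933), PFN2 for CBFA2T2 (0.834) and RAB23 for CBFA2T3 (0.936).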

How the data were processed

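ATAC-Seq libraries were made from nuclei of 12 HEK293T samples, 3 in each of the groups Mock, d0, d3 and d28. The authors deposited raw read counts per gene entry (unit: counts, not normalized). Per the submitters' processing notes, bcl2fastq, Bowtie2 and HTSeq were used with build GRCh38. Versions, the interval counted per gene, read shifting and removal of duplicates are not given in the sources used here. Reads were not pooled across replicates. Raw counts differed from 353430 to 3539937 per sample.

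Tested were the 27579 of 52889 entries whose normalized counts averaged more than 2 in 1 or more groups, with edgeR 4.0.16 (quasi-likelihood, TMM factors recomputed after the filter, all 12 samples in 1 fit, group as the only term) in R 4.3.3, with Benjamini-Hochberg adjustment over all entries tested and calls at 0.05. DESeq2 1.42.0 was an alternative. The script was tested on simulated counts. Normalized counts are raw counts rescaled to a common effective library size (the mean of the 12), and counting intervals would cover counting error only. Entries joined from several identifiers numbered 100. Gene positions and promoters were taken from RefSeq (GRCh38.p14), where all 7 symbols matched. Protein-coding genes placed there numbered 16891 of those tested.

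The members and gene lists were chosen with earlier results of these data known, and the 5 Mb window was chosen after the data were seen. The genes named were the 7 members, list genes and neighbours past an adjusted p of 0.05, overlapping genes and the genes most like each member (3 for RUNX1T1 and 1 for each other). The alternatives were RLE factors, library sizes alone, mitochondrially encoded genes removed, DESeq2, filterByExpr, no filter, the 6 samples of a comparison alone, a replicate block, another call rule and leaving out each sample. Figures were drawn with matplotlib 3.10.9.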

Additional observations from a re-analysis of the deposited data

Results flagged for a closer look

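Some genes differed between the fusion groups in their departure from Mock, by the test of one group against the other. RUNX1T1 differed by -1.54 on the log2 scale between d28 and d0, a contrast that shares the d0 samples with the one that led to the choice of the genes. KMT2A differed by 0.96 between d28 and d0, where vector reads cannot be told apart from the gene. SIN3A differed by 0.62 and FGF18 by -1.27 between d3 and d0. Groups of 3 samples are too small for the check of single outlying samples.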

How the results depend on the processing

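The fall of RUNX1T1 against Mock and against d0 kept its direction under every alternative run. With library sizes alone the median log2 fold change over all entries was -1.34 at d28 against Mock and -0.88 against d0. The direction at d28 in that setting is therefore not informative. No adjusted p was given by DESeq2 for RUNX1T1 at d28 against d0. With library sizes alone, 5 genes were called at d28 against Mock, 5 at d28 against d0 and 6 at d28 against d3, and log2 fold changes changed sign. Against Mock these were -0.12 (RUNX2), -0.11 (CBFB) and -0.23 (RUNX1T1) at d0, -0.28 (RUNX3) at d3, and -0.98 (RUNX2), -0.34 (RUNX3), -0.85 (CBFB), -1.33 (CBFA2T2) and -0.59 (CDC5L) at d28. They were 0.048 (RUNX1) and 0.0066 (CBFA2T3) for d3 against d0, -0.86 (RUNX2), -0.74 (CBFB) and -0.86 (CBFA2T2) for d28 against d0, and -0.051 (RUNX3), -0.96 (RUNX1T1) and -0.66 (CBFA2T2) for d28 against d3. By construction this setting lets the mitochondrial share enter the scaling. It also ended the calls of TLE4 (0.11), of KMT2A (0.70 at d3 and 0.016 at d28 against Mock), of ZIC2, SIN3A and FGF18. Of the alternatives, SIN3A passed only without a filter or without the mitochondrially encoded genes, NCOR1 did not pass in either of these settings, and ITGAE and FGF18 did not pass without a filter. Values near 0 also changed sign: CBFA2T2 at d28 against Mock was -0.015 with RLE factors and -0.012 with filterByExpr, and RUNX1 without a filter was 0.0093 (d0) and 0.034 (d3) against Mock and 0.025 for d3 against d0. RUNX1 at d0 against Mock was 0.0047 without the mitochondrially encoded genes and 0.0021 with the 6 samples alone. The rule of unadjusted p with a log2 limit called 2 genes at d28 against Mock and 2 at d28 against d0. For the changed signs and counts the cause was not tested.

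With 1 sample left out, 0 to 1 genes were called at d3 against Mock, 0 to 1 at d28 against Mock and 0 to 1 at d3 against d0. From the last count nothing is read, because that contrast entered the choice. Log2 fold changes that changed sign ranged, at d0 against Mock, from -0.16 to 0.29 (CBFA2T2), -0.042 to 0.79 (CBFB), -0.094 to 0.14 (RUNX1), -0.10 to 0.42 (RUNX1T1) and -1.14 to 0.24 (RUNX3). At d3 against Mock they ranged from -0.44 to 0.030 (CBFA2T2), -0.20 to 0.19 (RUNX1) and -0.42 to 0.48 (RUNX3), and at d28 against Mock from -0.13 to 0.35 (CBFA2T2). For d3 against d0 they ranged from -0.45 to 0.48 (CBFA2T3), -0.20 to 0.20 (RUNX1), -0.035 to 0.27 (RUNX2) and -0.15 to 1.24 (RUNX3). For d28 against d0 they ranged from -0.053 to 0.24 (CBFA2T2), -0.65 to 0.28 (CBFA2T3), -0.14 to 0.55 (CBFB) and -0.050 to 0.21 (RUNX2), and for d28 against d3 from -0.47 to 0.045 (CBFB), -0.21 to 0.38 (RUNX1T1) and -0.16 to 0.081 (RUNX2). None of these passed an adjusted p of 0.05 by edgeR's test.

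Replicate numbers did not pair the samples: correlations of same-numbered deviations ran from -0.153 to 0.0824. With the replicate block RUNX1T1 had log2 fold changes of -1.38 at d3 and -1.37 at d28 against Mock, the count of members called was 1 in each, and no call among the 7 genes changed. Exon lengths were not used here, so the alternative density was not run. The low counts (1 to 17 reads per sample for RUNX3) leave changes of moderate size undetectable.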
